A study of Homo sapiens with 42 samples.

Results

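Quizartinib (AC220), an inhibitor of the receptor tyrosine kinase FLT3, was compared with its vehicle in MOLM-13 cells kept in plain RPMI medium, using libraries of total RNA. The 6 libraries were chosen by their labels as the input fraction of RPMI cultures given quizartinib (3 libraries) or vehicle (3 libraries), out of 42 libraries in the series. The remaining libraries came from other drug and medium combinations or from polysome fractions of the same cultures. MOLM-13, derived from a human acute myeloid leukemia, has a duplicated stretch within its FLT3 gene (FLT3-ITD) and a KMT2A-MLLT3 fusion, and it is the 1 cell line used for these 6 libraries. All 6 cultures grew in RPMI with 10% FBS, and received DMSO as vehicle or 3 nM quizartinib for 12 h. Cycloheximide, which stops translating ribosomes on their mRNA, was added to every culture before harvest, so it is shared by both groups. The comparison asks what FLT3 inhibition does to the transcriptome before any signal from the bone marrow stroma is supplied.

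The duplicated FLT3 receptor signals without its ligand. It drives the RAS and ERK cascade, the PI3K, AKT and mTOR pathway, and the transcription factor STAT5, and the last of these is a hallmark of the duplicated receptor. ERK and STAT5 keep short-lived target mRNAs high, AKT keeps FOXO transcription factors out of the nucleus, and MYC and mTOR act on ribosome production, nutrient uptake and cell growth.

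The 6 libraries held 27489856 to 37161265 counts each, and gene levels are given below as CPM, a gene's counts relative to the library total, scaled with TMM factors unless stated otherwise. There is no spike-in, so every change is relative to the other RNA of the same library, and in bulk RNA fewer cells of a type and less RNA per cell cannot be told apart. The study reports that RNA yield fell under quizartinib, less in whole lysates than in polysome fractions. Relative levels do not show this. The study calls its replicates biological, and the labels do not say how cultures were started apart. The p-values measure the spread within groups over all 42 libraries, polysome fractions of the same cultures included. This spread may be partly technical. The markers of the line were present in every library: per library total, CD33 stood at 63.2 to 85.5 CPM, SPI1 at 265 to 440 CPM and LYZ at 435 to 668 CPM. Of 20 stromal markers, 8 had no count in any of the 6 libraries, among them the fibroblast genes DCN, LUM, PDGFRA and POSTN. The summed stromal level was 12.5 to 19.5 CPM in vehicle and 28.3 to 56.6 CPM in quizartinib, and 12.3 to 16.8 against 17.8 to 20.2 CPM without COL1A1. Markers of other blood lineages summed to 27.7 to 56.7 CPM in vehicle and 35.6 to 65.6 CPM in quizartinib, with the hemoglobin genes HBB, HBA1 and HBA2 at 0 in all 6. Of the 3 stromal and 3 other lineage markers that passed the filter, COL1A1, TAGLN (0.98) and GNLY (2.98, with overlapping libraries) were called higher. For TAGLN, 38.1% of exon bases lie in another gene on the same strand and 34.1% opposite PCSK7, so part of its counts could be a neighbor's. Whether either set of markers has a part in the results was not tested. The share of counts in mitochondrially encoded genes was 6.38%, 2.56% and 3.05% in vehicle replicates 1, 2 and 3 and 7.77%, 3.83% and 3.96% in quizartinib replicates 1, 2 and 3, so replicate 1 stood above the others in both groups. TAGLN (without V1, adjusted p 0.0772) and GNLY (without V1, V3, Q2 or Q3, adjusted p up to 0.164) lost their edgeR call when 1 library was left out.

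FLT3 inhibition changed a large part of the transcriptome within 12 h. Of 12939 genes tested with the edgeR quasi-likelihood test, 4477 (34.6%) differed at a Benjamini-Hochberg adjusted p under 0.05, with 2149 (16.6%) higher and 2328 (18%) lower in quizartinib. The change was at least 2-fold for 2850 of them, 1322 up and 1528 down, and at least 4-fold for 298 up and 419 down. All 3 quizartinib libraries lay above or below all 3 vehicle libraries for 7211 genes (55.7%), called or not. Across all tested genes the median log2 change was 0.08, with the central 90 percent between -1.71 and 1.54, and each gene list below is read against these shares and this median. Of the 4477 called genes, 4474 moved the same way in all 3 pairs of same-numbered replicates. A fit over only the 21 input libraries called 5988 genes. With the replicate number as a block it called 7560, 3716 up and 3844 down. The block takes in the pairing of same-numbered replicates, which the main fit leaves out. Calls below come from the main fit unless the block is named. Below, V1 to V3 and Q1 to Q3 name vehicle and quizartinib replicates 1 to 3 where a call was lost when 1 of them was left out.

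**Figure D1:**
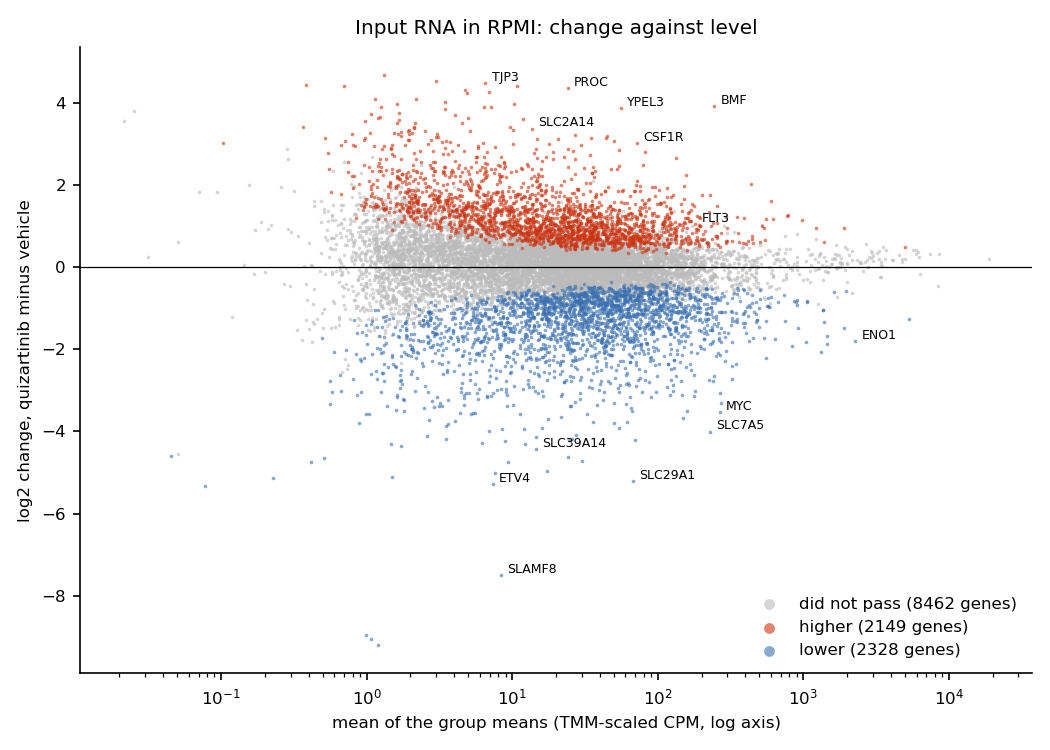
Log2 change (quizartinib minus vehicle, vertical axis) of each of the 12939 tested genes against the mean of its group means (TMM-scaled CPM, horizontal axis, log scale). The 2149 genes called higher and the 2328 called lower are colored, and falls reach further from 0 than rises.

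The furthest falls and rises held genes of several kinds. The largest fall, among genes with at least 10 CPM in the higher group and libraries that did not overlap, was that of SLAMF8 (chr1:159826811-159837492, plus strand, GRCh38), a receptor of the SLAM family on myeloid cells. SLAMF8 stood at 15.4, 17.7 and 16.6 CPM in vehicle and at 0, 0.253 and 0 CPM in quizartinib, and its raw counts fell from 608, 617 and 490 to 0, 10 and 0. Of its annotated exon bases, 72.7% lie opposite exons of 2 annotated genes, and since the counting is not stated to use strand, their reads cannot be told apart. Other large falls were in BATF3, an AP-1 family factor (log2 change -5.01, edgeR adjusted p 2.77e-09), SLCO4A1, an organic anion transporter (-4.95), B4GALT2, a galactosyltransferase (-4.73), SLC39A14, a zinc and iron importer (-4.42), and STC2, a secreted stanniocalcin (-4.24). DDN, HPDL and the antisense transcript VPS9D1-AS1 fell by 4.76, 4.63 and 4.29 on the log2 scale, and for the last 29.5% of exon bases lie opposite another gene.

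The largest rise, among genes with at least 10 CPM in the higher group and libraries that did not overlap, was that of TJP3 (chr19:3708362-3750813, plus strand), which encodes a tight junction scaffold. TJP3 stood at 0.252, 0.775 and 0.643 CPM in vehicle and at 9.35, 14.5 and 13.7 CPM in quizartinib. The 2 groups were well apart, with a log2 change of 4.50 (SE 0.54, edgeR adjusted p 3.86e-08). PROC, which encodes the anticoagulant protein C, rose from a mean of 2.26 ± 1.04 to 46.1 ± 16.2 CPM (log2 change 4.36, edgeR adjusted p 8.08e-06), where ± gives the SD of 3 libraries, as in all such values. ISG20, an interferon-inducible exonuclease, and MMP19, a matrix metalloproteinase, rose by 3.99 and 3.91 on the log2 scale. The transcription factors ZNF467 and SOX13 rose by 3.91 and 3.61, the actin-associated SYNPO by 3.43, and the glucose transporter family member SLC2A14 by 3.38, although SLC2A14 is close in sequence to SLC2A3 and reads may be split between them. In all 24 genes of largest change, the third RPMI condition of the study, quizartinib with everolimus, had a mean level nearer to quizartinib than to vehicle (on log2 of CPM plus 0.1). This condition also received 3 nM quizartinib, and the 24 genes were picked for their distance between quizartinib and vehicle. The result is therefore no separate check.

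Components that carry the FLT3 signal were called about as often as all genes (35.3% against 34.6%). Of 34 tested members of the chain, from the receptor through adaptors and kinases to STAT5, 10 rose and 2 fell. Among all genes 16.6% were higher and 18% lower. The median log2 change of the members was 0.39. The receptor itself was among those that rose. FLT3 (chr13:28003274-28100592, minus strand) stood at 147, 113 and 94.6 CPM in the vehicle libraries and at 313, 247 and 176 CPM in the quizartinib libraries. The lowest quizartinib library was above the highest vehicle library, with a log2 change of 1.05 (SE 0.26, edgeR adjusted p 0.00168). CBLB, a ubiquitin ligase that turns off tyrosine kinase signaling, rose by 1.82, JAK2 by 1.37 and STAT5A by 1.08. PTPN11, the phosphatase SHP2 that relays receptor signals to RAS, changed by -0.79 (edgeR adjusted p 0.0158) and AKT1 by -0.70 (0.0207). These were the only 2 members called lower. With the replicate block 21 members rose. PTPN11 (without Q3, adjusted p 0.106) and AKT1 (without V1, V3, Q2 or Q3, adjusted p up to 0.0783) lost their edgeR call when 1 library was left out.

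Of 15 tested genes of ERK feedback and output, 10 fell and 1 rose, with a median of -2.16, which ranged from -4.07 to -1.84 over the alternative settings. ETV5 (chr3:186046314-186110318, minus strand), an ETS factor induced by ERK, stood at 25.4, 21.6 and 22.5 CPM in vehicle and at 0.439, 1.47 and 1.61 CPM in quizartinib. EGR1, an immediate early factor, stood at 82.5, 23 and 40.5 CPM in vehicle and at 2.52, 2.76 and 2.81 CPM in quizartinib. In both genes the groups were far apart, with log2 changes of -4.30 (SE 0.44, edgeR adjusted p 1.75e-09) and -4.17 (SE 0.59, 6.82e-07), and for EGR1 the vehicle libraries also spread widely. FOSL1 fell by 4.13 on the log2 scale, the RAF inhibitor SPRY4 by 2.74 and ETV4 by 5.28. DUSP6, the phosphatase that ERK induces against itself, went from a mean of 18.3 ± 2.82 to 6.46 ± 4.74 CPM, and its libraries did not overlap, but its log2 change of -1.50 did not pass (edgeR adjusted p 0.0922) and passed with the replicate block. DUSP4, EGR2 and PHLDA1 did not pass either, at -1.49, -1.53 and 0.28, and EGR2 fell with the replicate block. CCND1, below the level filter, had 23, 82 and 23 counts in vehicle and 0 in each quizartinib library, at least 44.1-fold lower when the quizartinib group is set at a floor of 3 counts. MAFF was the 1 member called higher (log2 change 1.47, edgeR adjusted p 0.0162), at 2.01 CPM in quizartinib. MAFF (without V1, V2 or Q3, adjusted p up to 0.0819) lost its edgeR call when 1 library was left out.

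**Figure D2:**
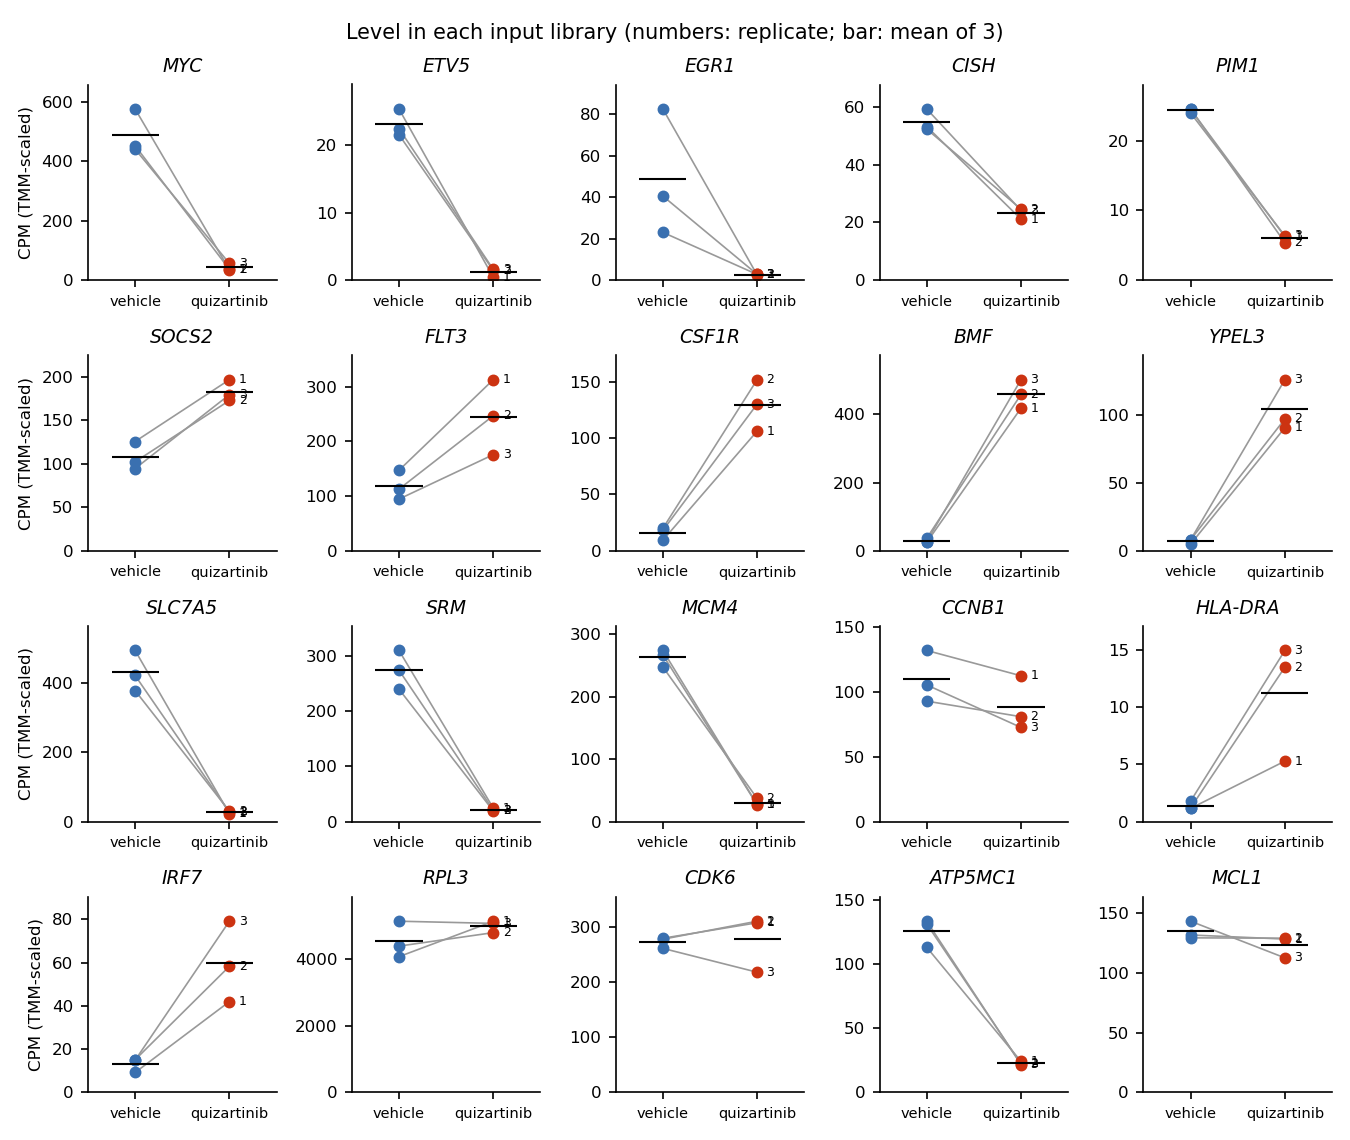
Level (TMM-scaled CPM, linear axis from 0) of 20 genes in each of the 3 vehicle and 3 quizartinib libraries, with 1 point per library, a line between same-numbered replicates and a bar at the mean of 3. MYC, SLC7A5 and MCM4 sit lower in all 3 quizartinib libraries, BMF and CSF1R higher, and CDK6 and RPL3 overlap.

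Of 12 tested STAT5 targets, 7 fell and 1 rose (3 with the replicate block), with a median of -1.16. CISH (chr3:50606489-50611774, minus strand), the cytokine-induced feedback inhibitor that STAT5 drives, stood at 53.1, 52.3 and 59.2 CPM in vehicle and at 21.1, 24.6 and 24.1 CPM in quizartinib. PIM1 (chr6:37170152-37175428, plus strand), a survival kinase, stood at 24.5, 24.5 and 23.9 CPM in vehicle and at 6.25, 5.39 and 6.35 CPM in quizartinib. Replicates of both genes agree closely, and both fell, with log2 changes of -1.24 (SE 0.16, edgeR adjusted p 1.02e-07) and -2.02 (SE 0.24, 2.86e-08). PIM2, CCND2, which encodes cyclin D2, and ID1, an inhibitor of basic helix-loop-helix factors, fell by 1.32, 2.10 and 2.04. SOCS2, another feedback inhibitor of cytokine signaling, went the other way, from 126, 102 and 94.7 CPM in vehicle to 197, 173 and 179.6 CPM in quizartinib (log2 change 0.77, SE 0.20, edgeR adjusted p 0.00316). All 3 quizartinib libraries were above all 3 vehicle libraries for SOCS2, and its antisense neighbor SOCS2-AS1 also rose, by 1.74. SOCS1, SOCS3, OSM and BCL2L1 did not pass, at 0.51, 0.50, -0.93 and 0.35, and with the replicate block SOCS3 and BCL2L1 rose and OSM fell.

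The stretch before the CISH start is shown because it holds 4 copies of the letters STAT dimers are known to bind, TTCNNNGAA, in capitals. It is chr3:50611838-50612024 on the minus strand of GRCh38.p14, from RefSeq, and the copies lie 103 to 241 bases before the start. TTCNNNGAA reads the same on both strands, and it was searched, as were all motifs here, in 300 bases from 250 before to 50 after each RefSeq gene start, which 9293 of the 12939 tested genes (71.8%) have.
CISH: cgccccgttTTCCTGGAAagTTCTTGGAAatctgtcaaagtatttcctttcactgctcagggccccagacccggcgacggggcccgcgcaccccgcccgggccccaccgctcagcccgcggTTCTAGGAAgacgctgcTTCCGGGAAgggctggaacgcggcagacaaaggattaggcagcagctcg
The letters occur in 6.19% of these promoters, in 5.70% of those of genes that rose and 5.93% of those that fell, and in 1 of the 9 STAT5 targets with a promoter, which is CISH. A match is a description of the letters and not a measured binding site.

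Of 21 tested FOXO targets, 13 rose, with a median of 1.22, and 1 fell with the replicate block. YPEL3 (chr16:30092314-30096915, minus strand), a small protein linked to growth arrest, stood at 4.97, 8.24 and 8.15 CPM in vehicle and at 90.4, 96.8 and 126 CPM in quizartinib. It was more than 10 times higher in every quizartinib library than in any vehicle library, with a log2 change of 3.87 (SE 0.31, edgeR adjusted p 5.99e-12). DEPP1, an autophagy regulator induced by FOXO, rose by 3.34, GABARAPL1, which builds autophagosomes, by 2.84, and PIK3IP1, an inhibitor of PI3K, by 2.69. TXNIP, which restrains glucose uptake, rose from a mean of 105 ± 33.9 to 354 ± 17.7 CPM (log2 change 1.76, edgeR adjusted p 0.00309), and KLF2 rose by 1.22. The cell cycle inhibitor CDKN1B (0.57, edgeR adjusted p 0.117) and the BH3-only gene BCL2L11 (0.61, 0.0707) did not pass, and both passed with the replicate block. KLF2 (without V1, V2 or Q3, adjusted p up to 0.206) lost its edgeR call when 1 library was left out.

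DEPP1 and TXNIP are shown as 2 of the genes that rose and hold the letters GTAAACA, a forkhead motif, before their start. DEPP1 is chr10:44978943-44979029 and TXNIP is chr1:145996657-145996743, both on the minus strand of GRCh38.p14, from RefSeq, with the motif in capitals.
DEPP1: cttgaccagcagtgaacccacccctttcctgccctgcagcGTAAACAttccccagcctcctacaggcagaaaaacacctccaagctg
TXNIP: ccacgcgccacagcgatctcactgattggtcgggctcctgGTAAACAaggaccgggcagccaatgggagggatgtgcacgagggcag
GTAAACA was searched on both strands and was found in 2.21% of all promoters, in 2.92% of genes that rose, in 1.57% of genes that fell and in 4 of the 18 FOXO targets with a promoter (22.2%).

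MYC fell further than any other member of its network. MYC, which drives ribosome production and growth genes, stood at 577, 453 and 441 CPM in vehicle and at 35.2, 36.5 and 56.3 CPM in quizartinib. The highest quizartinib library was far below the lowest vehicle library, and the log2 change was -3.52 (SE 0.32, edgeR adjusted p 1.85e-10). Of 12 tested genes of the MYC and MAX network, MYC and MYCL (-1.32) fell and 5 rose, with a median of 0.16 (4 fell with the replicate block, MNT and MLX among them). Those that rose were MXD4, MXD3 and MXD1, which pair with MAX in place of MYC and repress its targets, with changes of 1.73, 1.02 and 0.83, and the glucose-sensing factors MLXIP (0.68, named after its value was seen) and MLXIPL, whose libraries overlapped. The count of 5 was 3 without vehicle replicate 1 or without quizartinib replicate 2. MAX, MXI1, MNT, MGA and MLX did not pass (log2 changes of -0.06, 0.24, -0.32, 0.08 and -0.22). Of 10 AP-1 subunits, FOSL1 and BATF3 fell and FOSL2 rose (0.76), whereas FOS, FOSB, JUN, JUNB, JUND, ATF3 and BATF did not pass, of which BATF fell with the replicate block. MLXIPL (without V1, V2, V3, Q2 or Q3, adjusted p up to 0.127) and MXD1 (without V1 or Q2, adjusted p up to 0.112) lost their edgeR call when 1 library was left out.

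Ribosome biogenesis genes fell nearly as a whole. Of 52 tested genes for rRNA transcription, processing and ribosome assembly, 49 fell and the median was -2.03. The exceptions were NPM1 (-0.73, edgeR adjusted p 0.12), NOP10 (-0.58, 0.38) and TAF1D (-0.32, 0.69), of which NPM1 and NOP10 fell with the replicate block. MYBBP1A, NOP16, DDX21 and RRP9, all nucleolar factors, fell by 3.51, 3.50, 3.34 and 3.31 on the log2 scale, and nucleolin (NCL) went from a mean of 2285 ± 193 to 630.5 ± 58.3 CPM (log2 change -1.86, edgeR adjusted p 7.22e-05). The mRNAs of the ribosome's own proteins mostly did not pass. Of 76 cytosolic ribosomal protein genes, 2 fell and the median was 0.14. RPL3 stood at 4069, 4385 and 5131 CPM in vehicle and at 5127, 4789 and 5066 CPM in quizartinib, with overlapping groups and a change of 0.14 (edgeR adjusted p 0.536). RPS26 was among those called lower (-1.09), and ribosomal protein genes share reads with many processed pseudogenes. With the replicate block 7 ribosomal protein genes rose. RPS26 (without Q2, adjusted p 0.0522) lost its edgeR call when 1 library was left out.

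The rest of the translation machinery fell in part. Of 41 translation factors 21 fell and 1 rose (4 with the replicate block), with a median of -0.55. EIF5A, which frees stalled ribosomes, fell by 2.22, the scaffold EIF4G1 by 1.81, and EIF4EBP1, the inhibitor of cap-dependent translation, by 1.87. PDCD4, an inhibitor of the helicase EIF4A, was the 1 that rose (log2 change 0.94, edgeR adjusted p 0.00303). Of 20 cytosolic tRNA synthetases 15 fell, with a median of -1.21, led by FARSB, VARS, IARS and FARSA (-2.88, -2.72, -2.25 and -2.10).

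**Figure D3:**
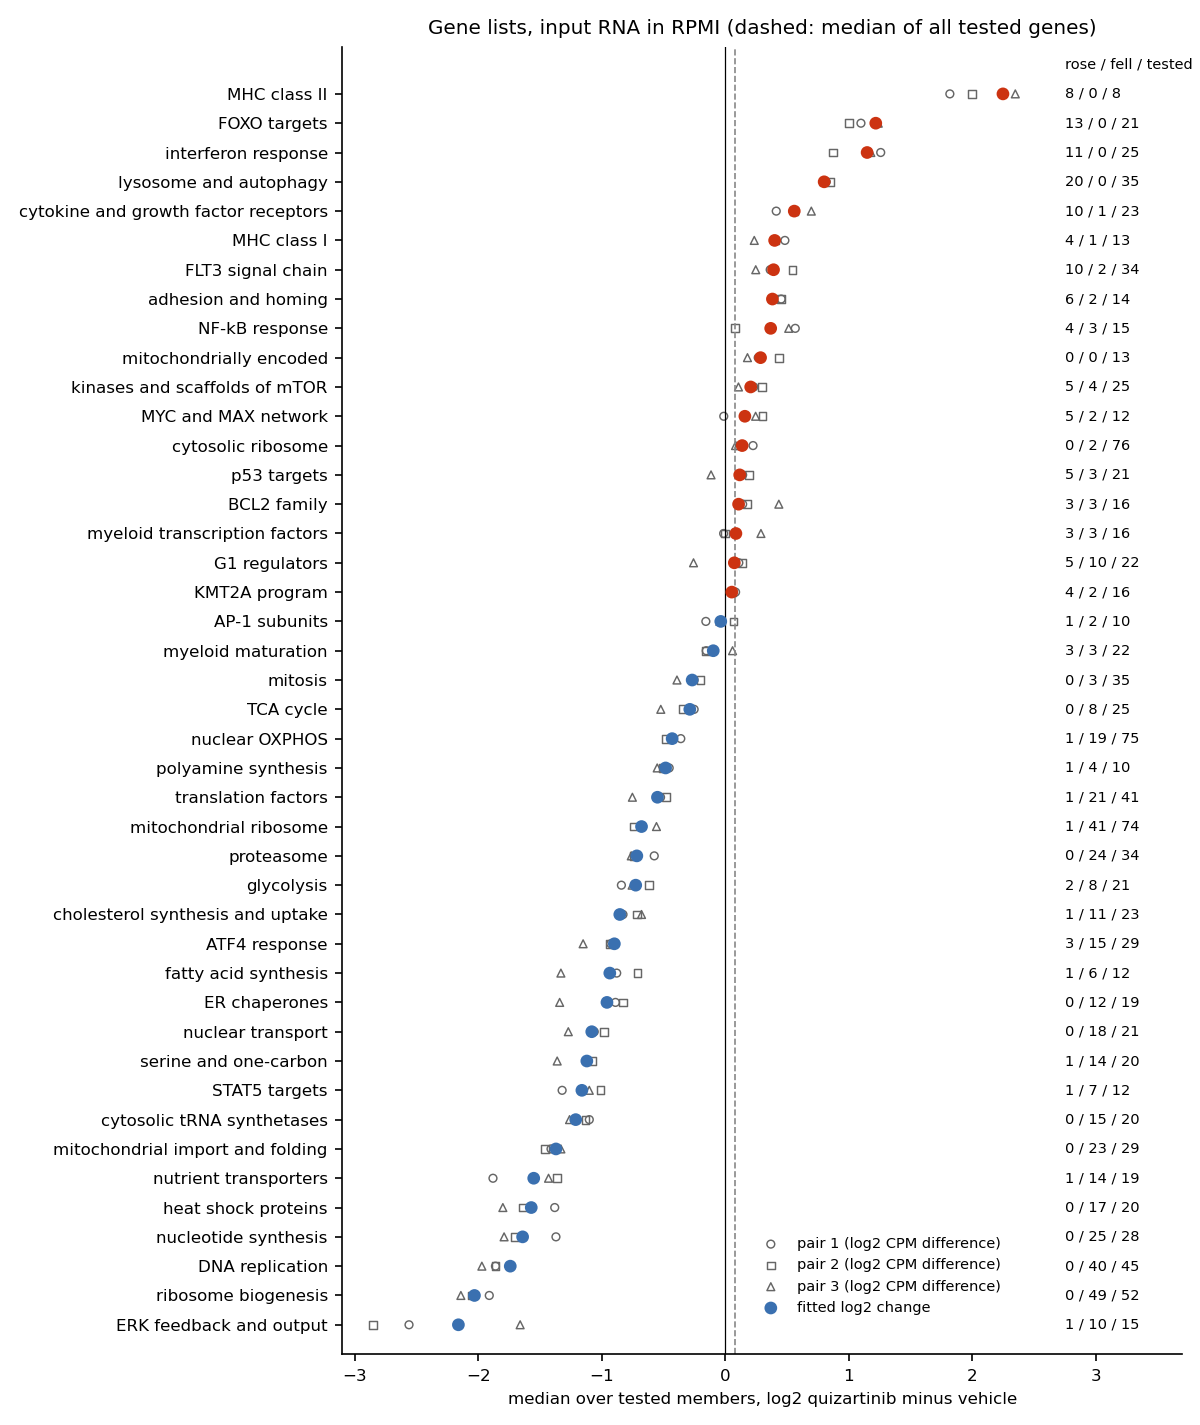
Median log2 change (quizartinib minus vehicle) over the tested members of each gene list with at least 8 of them, from the fit (filled) and in each replicate pair (open), with the numbers that rose, fell and were tested at the right and the median of all genes dashed. Ribosome biogenesis (-2.03) and DNA replication (-1.74) lie far below the median of all genes (0.08), MHC class II (2.25) and FOXO targets (1.22) above it, and the cytosolic ribosome (0.14) near it.

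The E-box CACGTG, the letters that MYC with MAX and the related TFE factors bind, is shown in 5 promoters because genes holding it moved both ways. SRM, DHODH and UTP4 fell and NEU1 and GAA, of the lysosome, rose, and apart from SRM these were picked after their values were seen. The stretches are chr1:11060172-11060257 (minus strand), chr16:72008545-72008630 (plus), chr16:69132593-69132648 (plus), chr6:31862902-31862987 (minus) and chr17:80101465-80101580 (plus) in GRCh38.p14, from RefSeq, with the E-box in capitals.
SRM: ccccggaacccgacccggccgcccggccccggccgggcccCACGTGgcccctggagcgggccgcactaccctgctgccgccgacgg
DHODH: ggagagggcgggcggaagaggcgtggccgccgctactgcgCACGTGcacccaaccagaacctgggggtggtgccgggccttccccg
UTP4: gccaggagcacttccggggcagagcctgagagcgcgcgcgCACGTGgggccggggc
NEU1: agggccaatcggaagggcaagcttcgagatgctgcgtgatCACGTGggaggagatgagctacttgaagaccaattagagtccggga
GAA: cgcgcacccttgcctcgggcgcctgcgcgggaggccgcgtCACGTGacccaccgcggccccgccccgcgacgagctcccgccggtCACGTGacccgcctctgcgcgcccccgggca
The log2 changes were -3.66, -2.53, -2.31, 1.24 and 0.80 in this order, all called, and none of these genes overlapped between the groups. CACGTG, which reads the same on both strands, was found in 10.5% of all promoters, in 15.5% of genes that fell and in 8.24% of genes that rose. It was in 15 of 43 ribosome biogenesis promoters (34.9%) and in 8 of 23 promoters of lysosome and autophagy genes (34.8%).

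Genes that feed growth fell together with the biogenesis genes. Of 19 nutrient transporters 14 fell and 1 rose, with a median of -1.55. SLC7A5 (chr16:87830023-87869507, minus strand), the carrier of leucine and other large amino acids, stood at 492, 377 and 420.4 CPM in vehicle and at 23, 30.2 and 27.3 CPM in quizartinib. The groups were widely separated, with a change of -4.00 (SE 0.26, edgeR adjusted p 1.47e-13). The arginine carrier SLC7A1 fell by 4.20 and the glutamine carrier SLC1A5 by 2.78, whereas the cystine carrier SLC7A11 rose by 1.13. Of 28 nucleotide synthesis genes 25 fell (median -1.64), among them NME1 (-3.77), CTPS1 (-3.23), PFAS (-2.81) and PAICS (-2.74), and IMPDH1, CTPS2 and DCK did not pass, of which IMPDH1 fell with the replicate block. Of 20 serine and one-carbon genes 14 fell (median -1.12), including PSAT1 of serine synthesis (-2.85), the mitochondrial folate enzymes MTHFD1L (-2.73) and ALDH1L2 (-3.06), and the folate carrier SLC19A1 (-2.32).

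SRM, spermidine synthase (chr1:11054584-11060020, minus strand), stood at 309.9, 239.8 and 274 CPM in vehicle and at 24.6, 19.5 and 21 CPM in quizartinib. All quizartinib libraries of SRM were far below those of vehicle, a log2 change of -3.66 (SE 0.25, edgeR adjusted p 2.28e-13), and ODC1, the rate-limiting enzyme of the pathway, fell by 2.25. SAT1, which acetylates polyamines for export and breakdown, rose by 2.29 from a mean of 12.1 ± 1.97 to 59.2 ± 23.5 CPM. In all, 4 of 10 polyamine genes fell and SAT1 was the 1 that rose (2 with the replicate block). Of 29 genes of the ATF4 response 15 fell and 3 rose (median -0.90), with CHAC1, a glutathione-degrading enzyme, at -4.19 and NUPR1 at 2.49. The count that rose was 1 without vehicle replicate 2. NUPR1 (without V1, V2 or Q3, adjusted p up to 0.0829) lost its edgeR call when 1 library was left out.

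Glycolysis and lipid synthesis genes fell less evenly. Of 21 glycolysis genes 8 fell and 2 rose (median -0.72), and 14 fell with the replicate block. LDHA, which makes lactate, stood at 583, 539 and 504 CPM in vehicle and at 115, 114 and 77.3 CPM in quizartinib. No quizartinib library reached the vehicle range, and LDHA fell by 2.41 (SE 0.23, edgeR adjusted p 4.14e-10). ENO1, PFKP and PGAM1 fell by 1.80, 1.56 and 1.54, HK2 did not pass (-0.64, edgeR adjusted p 0.192, 4.85e-04 with the replicate block), and PFKFB4 and PFKFB3, which set the level of the activator of phosphofructokinase, rose by 1.61 and 0.69. Fatty acid synthase (FASN) fell by 3.14, the elongase ELOVL6 by 2.30 and the desaturases FADS1 and SCD by 1.86 and 1.84, in a list where 6 of 12 fell and ACSS2 rose (1.48). Of 23 genes of cholesterol synthesis and uptake 11 fell (median -0.85), led by DHCR7 (-2.54), and SQLE also fell (-1.15). TM7SF2 was the 1 that rose (1.20). PFKFB3 (without Q2, adjusted p 0.0553) and TM7SF2 (without Q3, adjusted p 0.0511) lost their edgeR call when 1 library was left out.

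Mitochondrial genes differed by function. Import and folding genes fell most, with 23 of 29 lower and a median of -1.37. TOMM40, the pore of the outer membrane, is listed in the table as AC011481.1 (ENSG00000130204) and fell by 3.07, and the chaperonin subunit HSPE1 and the inner membrane scaffold PHB fell by 2.74 and 1.87. Of 74 mitochondrial ribosomal protein genes 41 fell (median -0.68). The count was 28 to 35 when 1 library was left out and 62 with the replicate block. MRPL24 (-2.29) fell furthest, followed by MRPL12, for which 69.5% of exon bases lie in another gene on the same strand. Of 75 nuclear genes of oxidative phosphorylation 19 fell (median -0.43), where 18% of all genes fell. Their called share in either direction was 26.7%, below the 34.6% of all genes. The count that fell was 12 without quizartinib replicate 2 and 49 with the replicate block, where 3 rose. ATP5MC1, a subunit of the ATP synthase ring, stood at 113, 131 and 133 CPM in vehicle and at 24.2, 22.2 and 21.8 CPM in quizartinib. All replicates of ATP5MC1 sat close together within each group, and it fell by 2.47 (SE 0.33, edgeR adjusted p 3.30e-07), as did cytochrome c (CYCS, -2.39). NDUFC1 was the 1 member called higher (0.69), and MRPL33, the 1 mitochondrial ribosomal gene called higher, overlapped between groups. Of 25 TCA cycle genes 8 fell (median -0.29), a called share of 32% against 34.6% of all genes. The count was 5 without quizartinib replicate 3 and 16 with the replicate block, with DLAT, FH and IDH3A at -1.53, -1.22 and -1.19. Of the 13 mitochondrially encoded genes 0 passed the edgeR test, 0 had an unadjusted p under 0.05, and 0 passed with DESeq2 or limma voom. With the replicate block 2 of them rose and 1 fell. Their median was 0.29, and their shares of each library are given above. Leaving out 1 library moved that median from -0.362 (without quizartinib replicate 1) to 0.916 (without vehicle replicate 1), so its sign rests on single libraries. NDUFC1 (without V1, V2, V3, Q1, Q2 or Q3, adjusted p up to 0.169) and MRPL33 (without V2, V3, Q1 or Q2, adjusted p up to 0.246) lost their edgeR call when 1 library was left out.

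**Figure D4:**
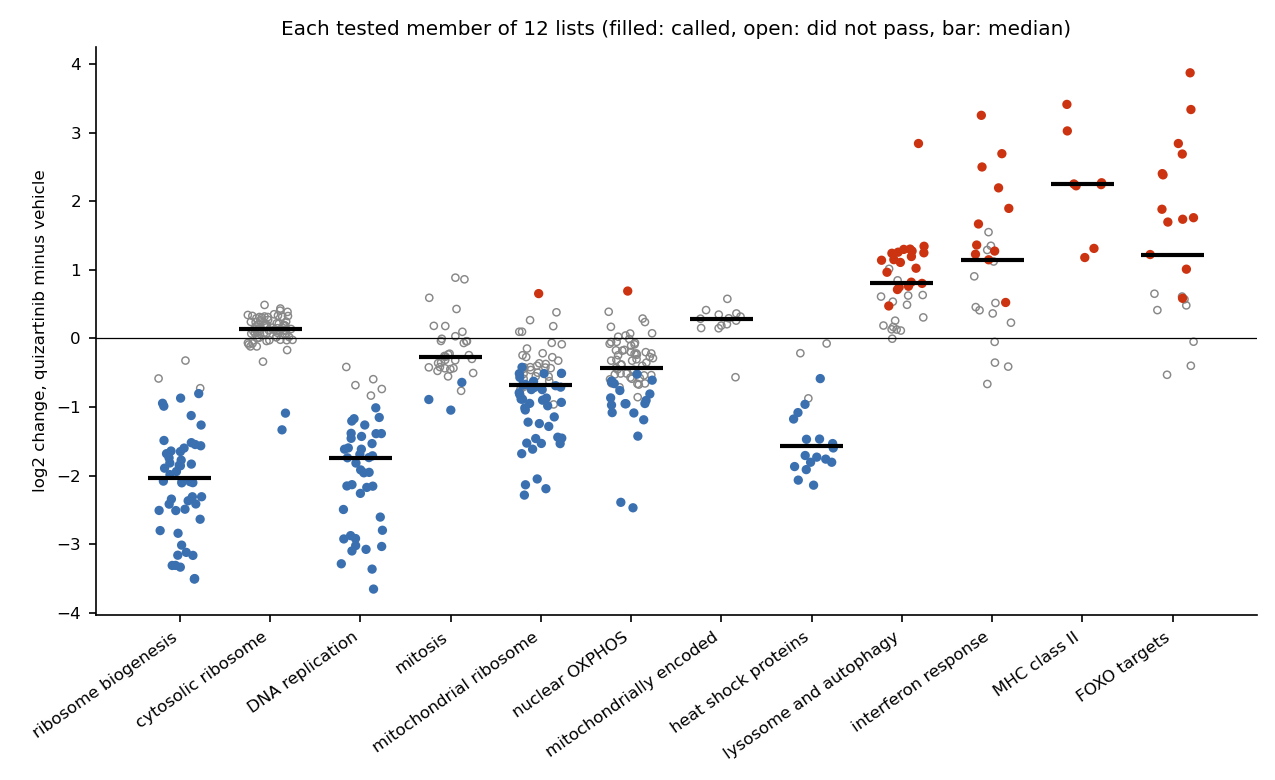
Log2 change (quizartinib minus vehicle) of every tested member of selected lists, with 1 point per gene (filled where called, open where not) and a bar at the median. All 52 ribosome biogenesis members lie below 0 while the 76 cytosolic ribosome members cluster near it.

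DNA replication genes fell. Genes of mitosis mostly did not pass in the main fit, which leaves the pairing out, and mostly passed with the replicate block. Of 45 replication genes 40 fell, with a median of -1.74. MCM4, a subunit of the replicative helicase, stood at 274, 248 and 267 CPM in vehicle and at 27.6, 37.4 and 27.1 CPM in quizartinib. Its groups did not overlap and it fell by 3.10 (SE 0.22, edgeR adjusted p 5.14e-13). MCM10, CDC6 and GINS2, which load or start the helicase, fell by 3.66, 3.37 and 3.29, and MCM2 by 2.88. PRIM1, PRIM2, RFC1, RPA2 and RPA3 did not pass, at -0.83, -0.42, -0.59, -0.68 and -0.74, and with the replicate block all of these but PRIM1 fell. Of 35 genes of mitosis 3 fell, CCNA2 (-1.05), CDK1 (-0.89) and AURKB (-0.64), and the median was -0.27. With the replicate block 21 fell and 3 rose. CCNB1, which drives entry into mitosis, stood at 132, 92.8 and 105 CPM in vehicle and at 112, 80.8 and 72.6 CPM in quizartinib. The groups overlapped, and its change of -0.31 did not pass (edgeR adjusted p 0.327, 0.00536 with the replicate block). AURKB (without Q2, adjusted p 0.0554) lost its edgeR call when 1 library was left out.

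The letters TTTGGCGC or TTTCCCGC, which E2F factors bind, are shown in 3 genes of this kind that fell. GINS2 is chr16:85688955-85689025, E2F1 chr20:33686386-33686445 and MCM6 chr2:135876486-135876635, all on the minus strand of GRCh38.p14, from RefSeq, with the motif or its reverse complement in capitals. E2F1 and MCM6 were picked after their values were seen.
GINS2: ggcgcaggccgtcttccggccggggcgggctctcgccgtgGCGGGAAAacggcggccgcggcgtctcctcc
E2F1: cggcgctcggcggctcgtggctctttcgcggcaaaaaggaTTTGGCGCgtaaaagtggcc
MCM6: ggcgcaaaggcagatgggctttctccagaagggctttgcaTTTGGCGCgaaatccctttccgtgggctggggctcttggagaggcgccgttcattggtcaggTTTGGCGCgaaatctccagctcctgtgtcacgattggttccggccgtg
E2F1 itself fell from a mean of 39.3 ± 4.86 to 4.65 ± 2.21 CPM (SD, n = 3 and 3), by 3.08 on the log2 scale, and MCM6 by 3.03. Either motif was found in 3.92% of all promoters, in 5.98% of genes that fell, in 2.15% of genes that rose and in 18 of 38 DNA replication promoters (47.4%).

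Regulators of the G1 phase moved in both directions. Of 22 tested, 10 fell and 5 rose (8 with the replicate block). CDC25A, the phosphatase that activates CDK2, fell by 3.20, CDK4 by 1.86, SKP2, which targets CDKN1B for degradation, by 1.63, and CCND3 by 1.12. For CDK4, 44.2% of exon bases lie opposite TSPAN31. CDK6, the other partner of the D cyclins, stood at 280.3, 279 and 262 CPM in vehicle and at 308, 311 and 219 CPM in quizartinib. The groups overlapped and the change was 0.03 (edgeR adjusted p 0.934), slightly below 0 in some other fits. The antiproliferative genes BTG2 and BTG1 rose by 2.68 and 1.87, the atypical cyclins CCNG2 and CCNG1 by 2.39 and 0.95, and the inhibitor CDKN1C by 3.25, at no more than a mean of 1.43 CPM. CDKN1C (without V1, adjusted p 0.0702) and CCNG1 (without Q1, adjusted p 0.0618) lost their edgeR call when 1 library was left out.

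Of the BCL2 family and p53 lists, shares near that of all genes were called (37.5% and 38.1%, against 34.6%), and single members moved far. BMF (chr15:40087890-40108892, minus strand), a BH3-only protein that promotes apoptosis, stood at 25.1, 37.1 and 27.5 CPM in the vehicle libraries and at 418, 458 and 501 CPM in the quizartinib libraries. All quizartinib libraries of BMF were far above those of vehicle, a log2 change of 3.94 (SE 0.35, edgeR adjusted p 9.83e-11). Of 16 BCL2 family genes BMF, BNIP3L (1.75) and BAD (0.58) rose, and BID (-1.59), PMAIP1 (-1.35) and BCL2 (-0.51) fell, and with the replicate block 7 rose and 6 fell. MCL1, the survival protein that myeloid leukemia cells often need, went from a mean of 135 ± 7.44 to 123 ± 9.29 CPM and did not pass (-0.13, edgeR adjusted p 0.578). Of 21 p53 targets 5 rose and 3 fell (median 0.12). TP53INP1, TP53I3 and CCNG1 rose by 2.59, 1.65 and 0.95, besides BTG2 and SESN1, and PLK3, AEN and TRIAP1 fell by 1.82, 1.64 and 1.14. The count that rose was 3 without quizartinib replicate 1, and with the replicate block 8 rose and 5 fell. BAD (without V1, V2, Q2 or Q3, adjusted p up to 0.138) and BCL2 (without V1 or Q3, adjusted p up to 0.0728) lost their edgeR call when 1 library was left out.

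Receptors for growth factors and cytokines rose more often than they fell, with 10 of 23 higher, 1 lower and a median of 0.56, and 16 higher with the replicate block. CSF1R (chr5:150053291-150113372, minus strand), the receptor for macrophage colony-stimulating factor, stood at 9.44, 19.96 and 18.2 CPM in vehicle and at 106, 152 and 130.0 CPM in quizartinib. The lowest quizartinib library was several times the highest vehicle library, a change of 3.03 (SE 0.29, edgeR adjusted p 5.71e-10). The receptor tyrosine kinase AXL rose by 2.88, IL10RA by 2.81 and the granulocyte receptor CSF3R by 1.50, and IGF1R was the 1 that fell (-0.99). Of 14 adhesion and homing genes 6 rose and 2 fell. CXCR4, which holds cells in the marrow, rose from a mean of 70.1 ± 10.8 to 145 ± 3.15 CPM (log2 change 1.05, edgeR adjusted p 5.38e-06), and PECAM1, ITGB7 and ITGAL rose by 1.53, 1.87 and 1.18, while ITGB2, the partner of ITGAL in LFA-1, and ICAM2 fell by 1.13 and 1.07. For ITGB7, 42.3% of exon bases lie opposite another gene.

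Genes of myeloid identity did not move as a group. Of 22 tested genes of myeloid maturation 3 rose and 3 fell, with a median of -0.10, and with the replicate block 8 rose and 5 fell. Besides CSF1R and CSF3R, the granule protein S100A8 rose (2.43), and the neutrophil protease PRTN3 went from a mean of 7556 ± 1131 to 3139 ± 548 CPM (log2 change -1.27, edgeR adjusted p 0.00687). CD14 had 7, 10 and 0 counts in vehicle and 0 in each quizartinib library, at least 5.85-fold lower at a group floor of 3 counts. Vehicle replicate 3 was also at 0, so the groups overlapped, and the call of CD14 was lost with limma voom (adjusted p 0.0825) and over only the groups compared (0.0683). FCGR1A fell by 0.86. ITGAM, LYZ and MPO did not pass (-0.32, -0.47 and -0.83), although the LYZ and MPO libraries did not overlap and both passed as falls with the replicate block. Among transcription factors of the lineage, EGR1, GATA2 and IRF8 fell and CEBPE, ID2 and ZEB2 rose (37.5% called, against 34.6% of all genes). The count that rose was 1 without vehicle replicate 1, vehicle replicate 3, quizartinib replicate 1 or quizartinib replicate 2. With the replicate block 6 rose. CEBPA and SPI1 did not pass (0.41 and 0.34), and both passed as rises with the replicate block. In the program that KMT2A fusions maintain, 4 of 16 genes rose and 2 fell (4 with the replicate block), with 37.5% called. MEIS1, RUNX2 and JMJD1C rose by 1.00, 1.58 and 1.09, besides ZEB2, the histone methyltransferase DOT1L fell by 1.30, as did BCL2 by 0.51, and HOXA9 and MYB did not pass (0.54 and -0.32, edgeR adjusted p 0.12 and 0.352) but did with the replicate block (0.00424 and 5.64e-04). CEBPE (without V1, V2, Q1 or Q3, adjusted p up to 0.17), ID2 (without V3 or Q2, adjusted p up to 0.0955) and ZEB2 (without V1, V3, Q1 or Q2, adjusted p up to 0.163) lost their edgeR call when 1 library was left out.

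All 8 tested MHC class II genes were higher (median 2.25), and 3 of the 11 listed were below the level filter. CIITA, the master activator of class II, stood at 1.49, 2.64 and 2.44 CPM in vehicle and at 5.49, 12 and 14.2 CPM in quizartinib. HLA-DRA (chr6:32439878-32445046, plus strand) stood at 1.16, 1.21 and 1.79 CPM in vehicle and at 5.29, 13.5 and 15 CPM in quizartinib. Both sets of libraries were separate, with replicate 1 the lowest of the quizartinib libraries, and the changes were 2.27 (SE 0.37, edgeR adjusted p 9.86e-06) and 3.03 (SE 0.53, 2.48e-05). CD74, the invariant chain, rose from a mean of 340.0 ± 27.2 to 770.1 ± 79 CPM (log2 change 1.18, edgeR adjusted p 0.00815). HLA-DPA1, below the filter, had 0 counts in each vehicle library and 8, 39 and 19 in quizartinib. Of 13 class I genes 4 rose and 1 fell (7 and 3 with the replicate block), a called share of 38.5% against 34.6% of all genes, with HLA-E at 1.25 and HLA-F at 0.99, and the peptide transporter TAP1 at 0.73 against TAP2 at -0.80. Reads of the polymorphic HLA genes can be split between close copies. TAP1 (without V2, V3, Q1, Q2 or Q3, adjusted p up to 0.13) lost its edgeR call when 1 library was left out.

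Interferon response genes rose in part. Of 25 tested, 11 rose, with a median of 1.15 (18 rose and 2 fell with the replicate block), and 12 more of the 37 listed were below the filter. IRF7 (chr11:612553-615983, minus strand), the factor that amplifies type I interferon signals, stood at 9.22, 15.1 and 14.9 CPM in vehicle and at 42, 58.3 and 79.2 CPM in quizartinib. The quizartinib libraries were all higher, by 2.20 (SE 0.28, edgeR adjusted p 1.10e-07). IFIT2, SAMD9L and OAS1 rose by 3.25, 2.69 and 2.50. RSAD2, below the filter, had 2, 0 and 0 counts in vehicle and 23, 46 and 21 in quizartinib. Of 15 genes of the NF-kB response BCL3, TRAF1, RELB and NFKB2 rose (3.23, 2.24, 0.81 and 0.76), and the cytokine TNF (-3.14), the inhibitor TNFAIP3 (-1.25) and NFKB1 (-0.54) fell. The count that rose was 2 without vehicle replicate 1 or quizartinib replicate 2. RELB (without V1 or Q2, adjusted p up to 0.129), NFKB2 (without V1, V2, Q1, Q2 or Q3, adjusted p up to 0.188) and NFKB1 (without V1, V2, Q1, Q2 or Q3, adjusted p up to 0.177) lost their edgeR call when 1 library was left out.

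Lysosome and autophagy genes rose, with 20 of 35 higher and a median of 0.80. SQSTM1, the cargo receptor p62, rose from a mean of 127 ± 29.7 to 323 ± 81.3 CPM (log2 change 1.34, edgeR adjusted p 0.0013), the kinase ULK1, which starts autophagy, by 1.30, and the cholesterol exporter NPC1 by 1.30, next to GABARAPL1. LAMP1, the major membrane protein of lysosomes, overlapped between groups and did not pass (0.11, edgeR adjusted p 0.719). Genes for folding and degrading proteins in other compartments fell. Of 20 heat shock genes 17 fell (median -1.57), with HSPA8 from a mean of 2124 ± 147 to 507 ± 177 CPM (log2 change -2.07, edgeR adjusted p 4.10e-07) and HSP90AA1, HSPH1 and HSPA4L at -1.91, -1.87 and -2.14. Of 19 genes of the endoplasmic reticulum 12 fell (median -0.96), including the transcription factor XBP1 (-2.65) and the chaperone BiP (HSPA5, -1.73). Of 34 proteasome genes 24 fell (median -0.72), with members from -1.47 to -0.08. Nuclear transport genes fell in 18 of 21 cases (median -1.08), with RANBP1 at -3.00 and XPO5, the exporter of microRNA precursors, at -2.04, and XPO1, IPO5 and TNPO1 did not pass but fell with the replicate block.

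Of 25 tested mRNAs of mTOR complex members and their regulators, 5 rose and 4 fell, shares near those of all genes (36% called against 34.6%), with a median of 0.21, and 11 and 8 with the replicate block. The 5 that rose were the sestrins SESN3 (1.70) and SESN1 (0.59), which restrain mTORC1, DEPTOR (1.01), an mTOR inhibitor, TSC1 (0.59), a subunit of the complex that turns off RHEB, and FNIP1 (1.02), a partner of folliculin. TELO2 and TTI1, which help fold mTOR and related kinases, fell by 1.30 and 1.24, and the complex members MLST8 and RPTOR by 0.88 and 0.57. MTOR itself did not pass (-0.51, edgeR adjusted p 0.279, 1.19e-04 with the replicate block), and neither did ATM (-0.13). The count that rose was 3 without vehicle replicate 1, vehicle replicate 2, quizartinib replicate 1 or quizartinib replicate 2. SESN1 was named after its value was seen. TSC1 (without V1, V2, V3, Q1, Q2 or Q3, adjusted p up to 0.104) and RPTOR (without V2, V3 or Q1, adjusted p up to 0.0873) lost their edgeR call when 1 library was left out.

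Conditioned medium from human bone marrow stromal cells (hBMSC-CM) offered a comparison of the same drug, dose and time, with 3 input libraries in each group. The effect of quizartinib differed between media for 254 of 12939 genes (1.96%), by the interaction of drug and medium in edgeR at an adjusted p under 0.05, and for 1816 with the replicate block. Of the 254, 252 were also called in RPMI, 229 lower and 23 higher. In all 252 the change in hBMSC-CM went less far in the RPMI direction, or the opposite way. The interaction contains the RPMI change and these genes were called in RPMI, so this follows partly from how they were picked. The differences fell on the lists unequally: 25 of 52 ribosome biogenesis genes, 6 of 15 ERK output genes, 5 of 12 STAT5 targets, 6 of 19 nutrient transporters, 6 of 28 nucleotide synthesis genes and 7 of 45 DNA replication genes. No more than 1 gene of the FOXO targets, the interferon response, the MHC lists, the lysosome, the receptors and nuclear oxidative phosphorylation did so in any 1 list. With 1.96% of all genes called, lists of this size would hold few such genes anyway, so these counts do not set them apart.

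For MYC the change was -3.52 in RPMI and -0.33 in hBMSC-CM, and the difference was called (edgeR adjusted p 1.26e-05). CISH and PIM1 fell in RPMI and were at 0.18 and 0.56 in hBMSC-CM, and both differences were called (edgeR adjusted p 1.19e-04 and 5.84e-06). For ETV5 and EGR1 the changes in hBMSC-CM were -0.81 and -0.72, again with called differences (2.05e-04 and 0.00661). SLC7A5, SLC7A1 and SRM still fell in hBMSC-CM, by 1.26, 1.27 and 1.64, and less than in RPMI (3.62e-06, 2.99e-06 and 1.62e-04). YPEL3 and BMF rose by 2.02 and 2.24, less than in RPMI (0.00567 and 0.0324). For HLA-DRA, IRF7, CSF1R and FLT3 the changes in hBMSC-CM were 2.21, 1.28, 1.80 and 0.19, and the differences were not called (0.861, 0.342, 0.11 and 0.364). DNA replication kept a median of -1.19 and MHC class II of 1.43 in hBMSC-CM, against -1.74 and 2.25 in RPMI.

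**Figure D5:**
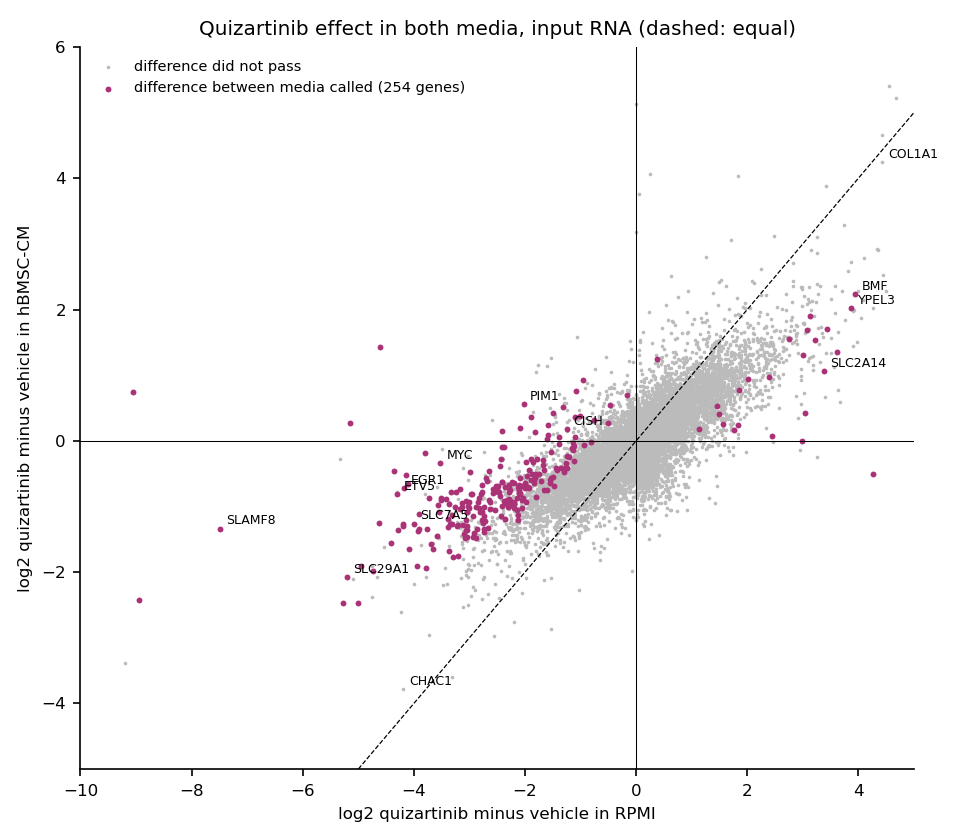
Log2 change under quizartinib in hBMSC-CM (vertical axis) against that in RPMI (horizontal axis) for all 12939 tested genes, with the 254 whose effect differed between media colored and the dashed line marking equal change. MYC, CISH and PIM1 lie near or above 0 on the vertical axis while far below 0 on the horizontal one.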

How the data were processed

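The deposited table holds raw counts per gene for all 42 libraries. As given in the study's methods and the submitters' processing notes, the authors trimmed paired-end reads, aligned them to hg38 and counted genes with STAR 2.6.0a; whether counting used strand is not given in the sources used here. All columns of the table map to a sample, leaving 0 columns of per-sample values unused. Rows with the same gene name were summed (58884 rows, 57353 names, with 0 rows lacking a name). Genes with a mean of at least 1 count and 1 CPM over the table were kept, which left 12939 genes and 99.8% of counts.

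Libraries were grouped by their labels. With R 4.3.3, edgeR 4.0.16 fitted a quasi-likelihood model with TMM factors over all 42 libraries, 1 coefficient per group, so that all groups share 1 estimate of spread (28 residual degrees of freedom), and the Benjamini-Hochberg adjustment ran over all genes tested. Quizartinib was contrasted with vehicle in RPMI input, and its interaction with medium was tested in the same fit. The model was tested on simulated data. Alternatives were limma 3.58.1 (voom), DESeq2 1.42.0, other scalings and filters, other sets of libraries, a replicate block, and leaving out each library.

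Same-numbered libraries deviated together from their group means (r = 0.570, 0.370 and 0.399 for replicates 1, 2 and 3). The main fit has no term for this pairing. Counting error is small at these depths, and intervals and floors (3 counts) cover counting error only. Gene positions came from GENCODE release 44 on GRCh38, the same assembly as hg38 in another release. Of 244 named genes, 112 share exon positions with a gene on the opposite strand and 40 with one on the same strand. Part of their counts could therefore belong to the neighbor or be missing. The share of exon bases opposite another gene was 43.9% for CEBPA, 38.8% for IDH3A and 34.7% for LYZ. Promoter sequences came from RefSeq.

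The members and gene lists were chosen with earlier results of these data known. Named genes were the 12 largest rises and 12 largest falls with an adjusted p under 0.05, at least 10 CPM in the higher group and libraries that do not overlap; up to 4 called members of each list in each direction; and a set of pathway genes named whatever the test. Members named to account for the rest of a list, and genes below the filter, were chosen after their values were seen. Some genes are not reported here.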

Additional observations from a re-analysis of the deposited data

Results flagged for a closer look

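The effect of quizartinib differed between RPMI and hBMSC-CM for 254 genes, by the interaction of drug and medium in the edgeR fit over all libraries. Of these, 252 were also called in RPMI. In each of the 252 the change in hBMSC-CM went less far in the RPMI direction, or the opposite way, which follows partly from how they were picked. The hBMSC-CM libraries are a separate set, so the interaction compares 4 groups of 3.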

How the results depend on the processing

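Across settings the count of genes changed by quizartinib stayed within 1.5 times of 4477 except with the replicate block, which gave 7560 (3716 higher, 3844 lower) over the 21 input libraries and 8166 (4041 higher, 4125 lower) over the groups compared. Of the 4477 genes, 4474 were also called in the same direction with the first of these. Leaving out 1 library gave 3576 to 4026. The count of at least 2-fold changes was 1761 with the stricter filter, which tests 8522 genes. The difference between media was called for 415 genes over only the groups compared, 740 over the 21 input libraries, and 1816 and 2040 with the replicate block over these sets, against 254 in all libraries, and for 173 to 242 when 1 library was left out. The cause of these moves was not tested. The CDK6 log2 change, at 0.03, was -0.0103 over the groups compared, -0.00512 over the input libraries, -0.0262 and -0.0268 with the block, and -0.0541 to 0.18 with 1 library left out. The median log2 change of list: mitochondrially encoded, at 0.29, went from -0.362 (without quizartinib replicate 1) to 0.916 (without vehicle replicate 1), and was -0.0563 without vehicle replicate 2. Of 225 called named genes, 33 lost the call without 1 library, and the largest number of them to lose it under any other setting was 15, with no filter on low counts (4 with limma voom, 1 with DESeq2). With 3 libraries a group, changes of low genes such as MAFF, NDUFC1 and MRPL33 are near the limit of what can be called.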

Other observations

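Histone genes and host genes of small nucleolar RNAs were grouped after their values were seen. Of 29 tested genes whose symbol starts with HIST, 10 rose and 3 fell (13 of 29 called, against 34.6% of all genes), with a median log2 change of 0.85 (quizartinib minus vehicle). HIST1H2AC went from a mean of 7.02 to 62.4 CPM, a log2 change of 3.15 (edgeR adjusted p 5.92e-06), and HIST1H2BD and HIST1H3H rose by 2.64 and 2.32. The linker histones HIST1H1E and HIST1H1B and the core histone HIST1H3I fell by 2.76, 2.53 and 2.76, from vehicle means of 2.31, 3.51 and 0.98 CPM. Another linker histone, HIST1H1C, was higher in quizartinib in libraries that did not overlap, but did not pass (1.58, edgeR adjusted p 0.189). The libraries were selected for poly-A tails, which most replication-dependent histone mRNAs lack, and histone genes of 1 type are close in sequence, so that reads can be split among them.

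Of 24 host genes of small nucleolar RNAs, 6 fell and 2 rose, a called share (8 of 24) no higher than the 34.6% of all genes. SNHG16 went from a mean of 147 to 30.1 CPM, a log2 change of -2.29 (edgeR adjusted p 5.79e-12), and SNHG3, SNHG4, SNHG17, SNHG15 and DANCR fell by 2.00, 1.93, 1.89, 1.79 and 1.11. SNHG6 and SNHG7 rose by 0.59 and 0.71, and GAS5 did not pass (0.44, edgeR adjusted p 0.218). Of 349 tested genes whose symbol starts with ZNF, 71 rose and 33 fell, against 16.6% and 18% of all genes, and the median was 0.30.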
